A study of Homo sapiens with 28 samples.

Results

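Growth factor receptor tyrosine kinases were described here by 10 genes: FGFR1, FGFR2, FGFR3, FGFR4, PDGFRA, PDGFRB, KIT, MET, EGFR and ERBB3. They were found by symbol in the deposited table of normalised read counts, where each matched 1 row, and they are 10 of the 35488 genes in it. The study compared the transcriptomes of SK-N-MC cells, an established Ewing sarcoma line that carries the EWSR1-FLI1 fusion, after doxycycline switched on a short hairpin RNA. Its hairpins were shFLI1, labelled as knockdown of EWS-FLI1, shCHD4#1 and shCHD4#2 against CHD4, the ATPase of the NuRD chromatin remodelling complex, and the non-targeting shScramble. RNA was taken after 24 and 48 h, with 3 libraries of each knockdown and 5 of shScramble at each time, 28 in all. Every group, shScramble included, received doxycycline at 100 ng/ml, so no group shows the cells without the drug. All groups are 1 cell line, and shFLI1 is a single hairpin. Their titles and treatment entries name the 5 shScramble libraries at 48 h as such while a genotype entry names a knockdown of CHD4, and CHD4 was not low in them (9343 to 13099 normalised counts).

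Receptor tyrosine kinases span the cell membrane: a growth factor outside the cell pairs them, the kinase parts phosphorylate each other, and the adaptor proteins that then bind start the RAS-MAPK and PI3K-AKT cascades. FGFR1 to FGFR4 bind fibroblast growth factors with heparan sulfate, PDGFRA and PDGFRB bind platelet-derived growth factors, KIT binds stem cell factor, MET binds hepatocyte growth factor, and EGFR and ERBB3 belong to the epidermal growth factor receptor family. ERBB3 has little kinase activity of its own and signals mainly with ERBB2. In Ewing sarcoma the fusion factor EWSR1-FLI1 is the known driver; it binds GGAA repeats as an activator and is also known as a repressor of many genes.

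The promoters of 5 members whose changes are described below, PDGFRA, PDGFRB, MET, FGFR4 and FGFR2, are printed as the 250 bases before a transcript start, from RefSeq on GRCh38.p14. Of the 10 members, 8 matched that table (all but FGFR1 and ERBB3), with 15 start windows in all, and the windows printed are the first listed for each gene. Capitals mark matches, on either strand, to 4 motifs: a GGAA repeat (GGAAGGAA), an AP-1 site (TGANTCA), a GC box (GGGCGG) and a TATA box (TATAAA). No match overlapped another in the printed windows.
PDGFRA, chr4:54229043-54229292, plus strand: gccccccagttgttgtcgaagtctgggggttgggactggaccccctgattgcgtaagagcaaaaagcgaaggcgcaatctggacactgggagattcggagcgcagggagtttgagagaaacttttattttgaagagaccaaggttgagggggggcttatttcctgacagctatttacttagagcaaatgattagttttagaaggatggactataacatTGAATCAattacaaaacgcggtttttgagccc
PDGFRB, chr5:150155846-150156095, minus strand: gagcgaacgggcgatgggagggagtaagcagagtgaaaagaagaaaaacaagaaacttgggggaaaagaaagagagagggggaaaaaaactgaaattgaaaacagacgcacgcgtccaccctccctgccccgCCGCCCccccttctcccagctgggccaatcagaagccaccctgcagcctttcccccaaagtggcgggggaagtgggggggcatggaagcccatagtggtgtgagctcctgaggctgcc
MET, chr7:116671946-116672195, plus strand: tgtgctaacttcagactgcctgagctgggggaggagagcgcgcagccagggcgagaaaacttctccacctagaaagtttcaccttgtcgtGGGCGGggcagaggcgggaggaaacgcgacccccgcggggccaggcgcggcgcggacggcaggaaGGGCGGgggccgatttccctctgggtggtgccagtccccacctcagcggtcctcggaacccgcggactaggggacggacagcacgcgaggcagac
FGFR4, chr5:177086665-177086914, plus strand: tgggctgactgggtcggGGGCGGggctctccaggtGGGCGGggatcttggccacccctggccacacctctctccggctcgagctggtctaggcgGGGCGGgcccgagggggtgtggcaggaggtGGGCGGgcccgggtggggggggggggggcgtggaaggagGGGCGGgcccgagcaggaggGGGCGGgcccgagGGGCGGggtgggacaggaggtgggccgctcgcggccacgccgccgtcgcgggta
FGFR2, chr10:121598445-121598694, minus strand: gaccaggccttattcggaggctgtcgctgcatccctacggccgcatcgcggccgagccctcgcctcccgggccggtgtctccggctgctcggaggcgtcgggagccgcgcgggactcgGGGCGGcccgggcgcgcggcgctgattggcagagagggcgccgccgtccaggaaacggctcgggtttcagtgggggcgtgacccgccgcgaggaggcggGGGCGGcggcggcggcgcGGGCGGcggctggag

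GC boxes stand out in these windows, 7 in FGFR4, 3 in FGFR2, 2 in MET and 1 in PDGFRB, while PDGFRA has none there and has 1 AP-1 match (TGAATCA) that begins 32 bases before the start. A GC box is present in 42.6% of the 35116 windows of this length in the table and an AP-1 match in 6.57%. The GGAA repeat was in none of the 15 member windows and in 3.06% of all windows, and a TATA box was in 10.7% of all. Of the 3 GC boxes in FGFR2, 2 begin 33 and 15 bases before the start. A match is only a match of letters, and no binding was measured in these libraries.

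The labels held in the targeted genes. CHD4 lay at 2959 to 3482 normalised counts with shCHD4#1 and 2722 to 2801 with shCHD4#2 at 48 h, against 9343 to 13099 with shScramble (log2 fold changes of -1.86 and -2.07). At 24 h it lay at 2747 to 3226 with shCHD4#1 and 2785 to 3465 with shCHD4#2, against 10099 to 12879 with shScramble. FLI1, whose count also takes reads of the fusion transcript, lay at 1566 to 1830 with shFLI1 against 3091 to 4306 with shScramble at 48 h, and at 1733 to 2021 against 3616 to 4735 at 24 h (log2 of -1.17 and -1.16). With shCHD4#2 at 48 h FLI1 also fell, at a log2 change of -0.34 ± 0.12 (adjusted p = 0.0291). The libraries held 46102707 to 64775441 reads on listed genes, of which the 10 members took 0.0151% to 0.0426%. At 48 h mitochondrial ribosomal RNA made up 22.1% to 22.5% of reads in shFLI1 libraries and 16.2% to 17.98% in shScramble libraries.

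Library 3 of the shFLI1 group at 48 h stood apart. It held 115 genes at 100 or more normalised counts that were under 10 in each of the other 27 libraries, while each of those 27 had 0 or 1 such gene. The epithelial genes CDH1 and EPCAM, named after their values were seen, were at 783 and 43.6 normalised counts in it, against at most 20.7 and 9.16 in any other library. KRT18, also an epithelial gene, was at 3709.9 in it, the lowest of the 28 libraries. Markers of other cell types, 14 of 16 of them in the table, summed at 48 h to 4650 to 4832 with shFLI1, 5223 to 7182 with shCHD4#1 and 4023 to 5739 with shCHD4#2, against 8775 to 13023 with shScramble, mostly from KRT18. PTPRC was higher with shFLI1, at 124 to 219.7 against 40.1 to 48.4, and CD3E was at 0 in 19 of 28 libraries. The part of these values in the results below was not tested, and each result that rests on the library is given with and without it. All 10 Ewing sarcoma markers examined, CD99 and NKX2-2 among them, were detected in every library. In bulk RNA a smaller share of cells that express a gene and less of its RNA in each cell cannot be told apart.

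KIT was the leading member in control cells. Per kilobase of exon, shScramble cells at 48 h held 960.0 ± 63.2 normalised counts of KIT, then 217 ± 20.7 of FGFR4, 178 ± 30.9 of FGFR3, 166 ± 28.4 of FGFR1, 127 ± 38.1 of PDGFRB, 114 ± 30.5 of MET and 74.3 ± 7.04 of FGFR2 (SD, n = 5). From FGFR4 to FGFR2 each neighbour in this order overlapped the next, whereas KIT lay apart above them. ERBB3 followed at 7.26 ± 2.16 per kilobase, PDGFRA at 0.741 ± 0.165 and EGFR at 0.0468 ± 0.0717. Among the members, ERBB3, PDGFRA and EGFR were thus at the low end in these cells. In normalised counts, not divided by exon length, FGFR1 came next after KIT, at a mean of 2295 against 1049 for FGFR4. ERBB2, the partner of ERBB3 and not itself a member, was at a mean of 163 per kilobase in the same libraries. KIT headed the order in 7 of the 8 groups. With shFLI1 at 48 h PDGFRB took its place, at 1109 ± 206 per kilobase, followed by KIT at 620.4 ± 133, MET at 429 ± 128 and FGFR1 at 321 ± 31.8, with FGFR4 lower in the order, at 30.7 ± 5.24 (SD, n = 3).

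With shFLI1 members changed in both directions. At 48 h, 6 of the 10 members rose (FGFR1, FGFR2, PDGFRA, PDGFRB, MET and EGFR), where 32.2% of all 21025 tested genes rose, and 4 fell (FGFR3, FGFR4, KIT and ERBB3), where 31.7% of all fell. Called means an adjusted p under 0.05 in a limma-trend fit of log2(value + 1) over all genes with a mean of at least 10 normalised counts. The median log2 change was 0.86 over the members and 0.01 over all tested genes. All 10 members passed that filter, though EGFR passed it only through library 3 of shFLI1 at 48 h, at 428 normalised counts. The entry of EGFR into the test and its call thus rest on the same value. Without library 3 of shFLI1, FGFR2 and EGFR were no longer called and 4 members rose and 4 fell. At 24 h, 3 members had risen (FGFR1, FGFR2 and PDGFRB; 24.2% of all genes rose) and 2 had fallen (FGFR4 and KIT; 22.5% of all fell), with a median of 0.31 against 0.00 over all genes. The labels call libraries of a group biological replicates; p-values measure the spread between these libraries.

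**Figure D1:**
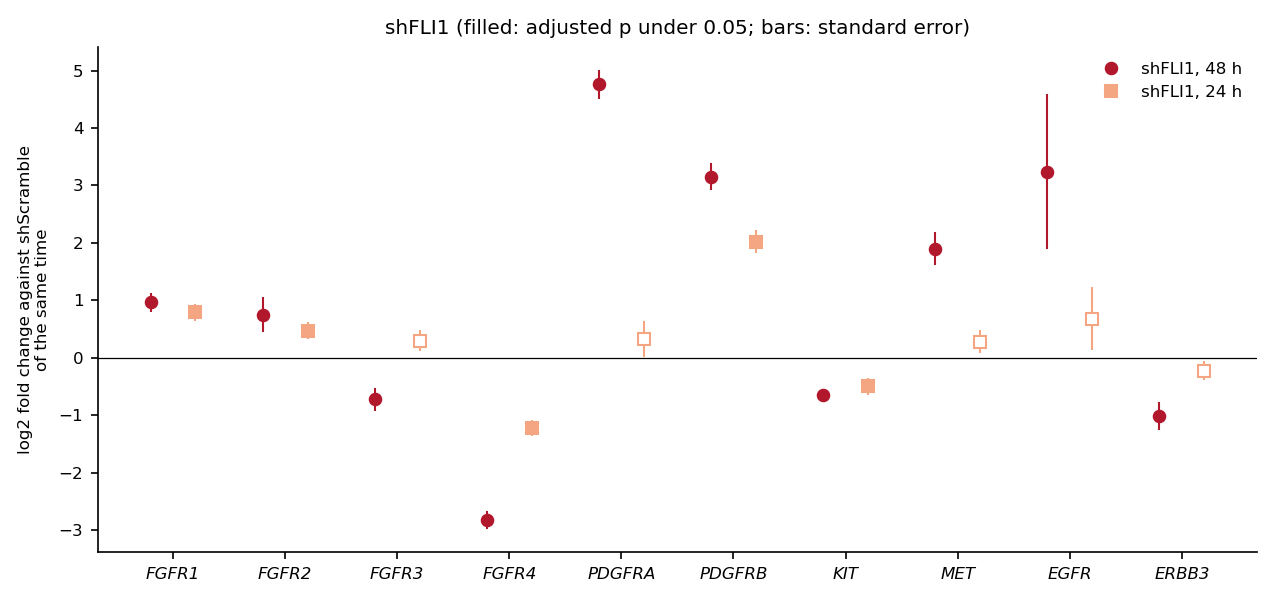
Log2 fold change of each member with shFLI1 against shScramble at 48 and at 24 h on the log2(value + 1) scale, with standard errors; filled points were called. PDGFRA is the highest at 48 h and FGFR4 the lowest at both times.

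Both platelet-derived growth factor receptors rose at 48 h. PDGFRB (chr5:150113837-150155872 on GRCh38), the receptor for PDGF-B and PDGF-D that marks mesenchymal and perivascular cells, had 8948, 8564 and 6229 normalised counts with shFLI1 at 48 h, against 769, 1318, 832, 1020.1 and 608 with shScramble. At 24 h it had 3317, 3258 and 3551 with shFLI1, against 865, 1181, 660.1, 1028 and 565 with shScramble. Every shFLI1 library lay above every shScramble library at both times. The log2 fold change was 3.15 ± 0.24 (adjusted p = 3.85e-08) at 48 h and 2.02 ± 0.20 (adjusted p = 1.83e-06) at 24 h, and the ratio of the means at 48 h was 8.70. PDGFRA (chr4:54229097-54298247), which binds PDGF-A and PDGF-C and marks mesenchymal progenitors, had 214, 285 and 170.3 normalised counts with shFLI1 at 48 h, against 5.36, 8.25, 8.14, 5.60 and 8.72 with shScramble. The groups were far apart at 48 h only: at 24 h PDGFRA had 9.31, 11.2 and 6.63 with shFLI1, against 11.1, 7.29, 7.09, 4.22 and 6.02 with shScramble, and the ranges overlapped. The change was 4.76 ± 0.25 (adjusted p = 1.33e-09) at 48 h, a ratio of means of 30.9, and 0.33 ± 0.31 (adjusted p = 0.411) at 24 h. Without library 3 the 48 h changes were 3.32 ± 0.27 (adjusted p = 3.23e-07) for PDGFRB and 4.94 ± 0.27 (adjusted p = 1.38e-08) for PDGFRA. KIT, which lies 359670 bases beyond PDGFRA on chromosome 4, fell.

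The fibroblast growth factor receptors split. FGFR1 (chr8:38400215-38468834), a receptor widespread in mesenchymal cells, had 4539, 4825 and 3961 normalised counts with shFLI1 at 48 h, against 1833, 1932, 2548, 2731 and 2434 with shScramble, and 4045, 3969 and 3911 at 24 h, against 2069.9, 1935, 2562, 2337 and 2646. The groups did not overlap at either time. Its log2 change was 0.96 ± 0.17 (adjusted p = 1.80e-04) at 48 h and 0.79 ± 0.14 (adjusted p = 3.76e-04) at 24 h. FGFR4 (chr5:177086886-177098144), known as the liver receptor for FGF19 and expressed in embryonal muscle tumours, went the other way. It had 120.5, 170.2 and 154 normalised counts with shFLI1 at 48 h, against 989, 1185, 1092, 1056 and 923 with shScramble, and 496, 436 and 325 at 24 h, against 778, 1053, 1007, 933 and 1057. No shFLI1 library reached the lowest shScramble library at either time. FGFR4 changed by -2.83 ± 0.16 (adjusted p = 2.43e-09) at 48 h and -1.22 ± 0.14 (adjusted p = 6.69e-06) at 24 h on the log2 scale.

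FGFR2 (chr10:121478334-121598458), the receptor of epithelia and bone precursors, had 934, 1060.3 and 859.7 normalised counts with shFLI1 at 48 h, against 499, 567, 619.6, 610.4 and 520.1 with shScramble. At 24 h it had 708, 904 and 699 with shFLI1, against 569.8, 661, 494, 548 and 490.0. The shFLI1 libraries were higher at both times, though the 48 h change of 0.76 ± 0.31 (adjusted p = 0.0459) was lost in 15 of 23 alternative analyses and without each of the 3 shFLI1 libraries in turn, at 0.83 ± 0.37 (adjusted p = 0.071) without library 3, 0.77 (adjusted p = 0.0935) without library 1 and 0.67 (adjusted p = 0.133) without library 2. At 24 h it was 0.48 ± 0.14 (adjusted p = 0.0135), and 0.36 (adjusted p = 0.096) without library 2 of shFLI1. FGFR3 (chr4:1793293-1808872), which restrains bone growth, had 552, 505 and 496 with shFLI1 at 48 h, against 1128, 767, 793, 812 and 811 with shScramble. All 3 were below shScramble at 48 h, at a log2 change of -0.72 ± 0.20 (adjusted p = 0.00507). At 24 h FGFR3 had 925, 859.9 and 699 with shFLI1, against 619.9, 550.2, 699.6, 683 and 811, overlapping groups with a change of 0.30 ± 0.18 (adjusted p = 0.185).

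As a share of the 4 FGF receptors per kilobase of exon, FGFR1 made up 54.9% ± 1.12 with shFLI1 and 26.1% ± 4.08 with shScramble at 48 h, and FGFR4 made up 5.27% ± 0.916 with shFLI1 and 34.2% ± 3.26 with shScramble (SD, n = 3 and 5). By mean share the leading FGF receptor was FGFR1 with shFLI1 and FGFR4 with shScramble. The lead with shScramble depends on the length used, that of all annotated exons (13842 bases for FGFR1 and 4829 for FGFR4). In normalised counts FGFR1 was ahead with shScramble at 48 h, at a mean of 2295 against 1049 for FGFR4. With the CHD4 hairpins FGFR1 held 10.2% ± 2.22 with shCHD4#1 and 13.2% ± 1.09 with shCHD4#2, and FGFR4 held 54.4% ± 10.8 and 46.4% ± 1.78 (SD, n = 3 each). The summed level was 584 per kilobase with shFLI1, 594 with shCHD4#1 and 360 with shCHD4#2, against 635 with shScramble. FGFR4 itself was at 323 per kilobase with shCHD4#1 and 166 with shCHD4#2, against 217 with shScramble, so with shCHD4#2 its share was higher while its level was lower. These shares are a description and were not tested.

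**Figure D2:**
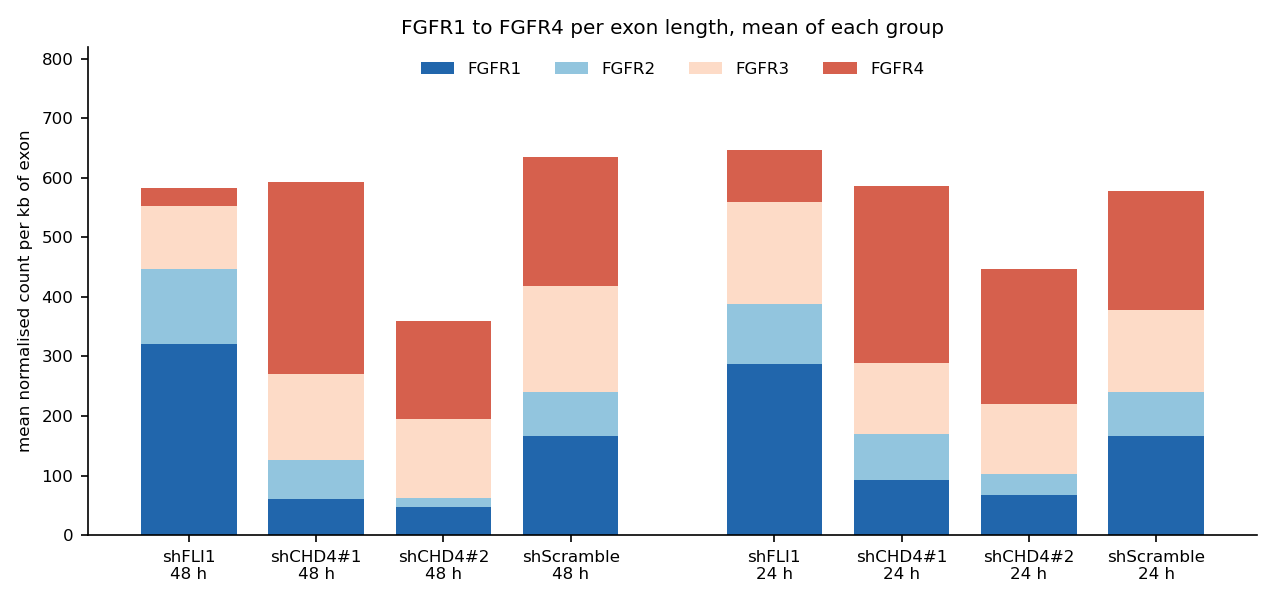
Mean normalised count per kilobase of exon of FGFR1, FGFR2, FGFR3 and FGFR4, stacked for each group, 48 h left of 24 h, with no error bars. FGFR1 is the largest block with shFLI1 (54.9% ± 1.12 of the sum at 48 h) and FGFR4 with shCHD4#1 and shCHD4#2 (54.4% ± 10.8 and 46.4% ± 1.78).

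KIT and MET, the receptors for stem cell factor and hepatocyte growth factor, moved apart. KIT (chr4:54657918-54740715) had 3755, 3989 and 2609 normalised counts with shFLI1 at 48 h, against 5548, 4939.7, 5608, 4974 and 5633 with shScramble, and 4799, 4599 and 2954 at 24 h, against 6285, 5667, 5486, 4924 and 6058. All shFLI1 libraries lay below all shScramble libraries at both times, and library 3 was the lowest of its group at each. The log2 change was -0.65 ± 0.12 (adjusted p = 2.04e-04) at 48 h, and -0.46 ± 0.09 (adjusted p = 5.07e-04) without library 3. At 24 h it was -0.49 ± 0.15 (adjusted p = 0.0128), and -0.27 (adjusted p = 0.0975) without library 3 of shFLI1 at that time. This call was also lost with quantile normalisation, at -0.34 (adjusted p = 0.0672), and against the 3 shScramble libraries with fewer processed pseudogene reads alone, at -0.44 (adjusted p = 0.0526). MET (chr7:116672390-116798386) had 3541, 3535 and 1980.0 normalised counts with shFLI1 at 48 h, against 1062, 554, 960.5, 629 and 818 with shScramble. The 3 libraries stood above all controls at 48 h, at a log2 change of 1.90 ± 0.29 (adjusted p = 4.52e-05), and 2.18 ± 0.31 (adjusted p = 4.53e-05) without library 3. At 24 h MET had 1299.6, 1247 and 765 with shFLI1, against 777, 627, 1121, 840.4 and 1174, and the ranges overlapped, at a change of 0.28 ± 0.20 (adjusted p = 0.266), while without library 3 of shFLI1 at 24 h the change was 0.53 (adjusted p = 0.0463).

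EGFR (chr7:55019021-55211628), the epidermal growth factor receptor, was read at more than a few counts in 1 library. It had 0, 4.60 and 428 normalised counts with shFLI1 at 48 h, against 0.893, 0, 2.03, 0 and 0 with shScramble. In reads this was 416 over the 3 shFLI1 libraries against 3 over the 5 shScramble libraries, a ratio per depth of 262 (95% counting interval 89.0 to 1275), and without library 3 it was 4 against 3, a ratio of 3.93 (0.665 to 26.8). The fitted change of 3.24 ± 1.35 (adjusted p = 0.0475) was lost in 15 of 22 alternative analyses and was 0.74 ± 0.72 (adjusted p = 0.397) without that library, and the group ranges overlapped. No other library exceeded 4.60 normalised counts of EGFR, and it was at 0 in all 3 libraries of shCHD4#2 at 24 h, where 3 reads over the group are the limit a count of 0 allows. ERBB3 (chr12:56076799-56103505), the neuregulin receptor, had 26.0, 32.2 and 35.3 with shFLI1 at 48 h, against 44.6, 94.8, 74.3, 59.7 and 54.5 with shScramble. All 3 lay below the controls, at -1.01 ± 0.24 (adjusted p = 0.00194), and -1.11 ± 0.28 (adjusted p = 0.004) without library 3. At 24 h ERBB3 lay at 35.7 to 53.8 with shFLI1 and 45.7 to 53.8 with shScramble, at a change of -0.22 ± 0.17 (adjusted p = 0.303).

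The effect of shFLI1 differed between the 2 times for 5 members. Tested as the difference between the 48 h and the 24 h log2 changes, it was higher at 48 h for PDGFRA by 4.43 ± 0.38 (adjusted p = 1.92e-08), for MET by 1.62 ± 0.37 (adjusted p = 0.00321) and for PDGFRB by 1.13 ± 0.33 (adjusted p = 0.0182), 3 members where 7.22% of all genes were higher. It was lower at 48 h for FGFR4, at -1.61 ± 0.22 (adjusted p = 7.66e-06), and for FGFR3, at -1.02 ± 0.28 (adjusted p = 0.0114), 2 members where 9.44% of all genes were lower. The PDGFRB difference was 1.03 (adjusted p = 0.0566) without library 1 and 1.06 (adjusted p = 0.0503) without library 2 of shFLI1 at 48 h. FGFR1, with 0.96 at 48 h and 0.79 at 24 h, differed between times by 0.17 ± 0.23 (adjusted p = 0.68), FGFR2 by 0.28 ± 0.36 (adjusted p = 0.666) and KIT by -0.16 ± 0.19 (adjusted p = 0.644), none of which passed the threshold. ERBB3 came to -0.79 ± 0.28 (adjusted p = 0.0522), and was called in 8 alternative analyses, among them the one without library 3 of shFLI1 at 48 h (-0.89, adjusted p = 0.0494).

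CHD4 knockdown lowered FGFR1, a member that rose with shFLI1. FGFR1 had 856, 619 and 1053 normalised counts with shCHD4#1 and 750.1, 566 and 631 with shCHD4#2 at 48 h, against 1833, 1932, 2548, 2731 and 2434 with shScramble. At 24 h it had 1403, 1086 and 1339 with shCHD4#1 and 1052, 703 and 1026 with shCHD4#2, against 2069.9, 1935, 2562, 2337 and 2646. No CHD4 library reached the lowest shScramble library at either time. The log2 changes at 48 h were -1.46 ± 0.17 (adjusted p = 4.21e-05) and -1.81 ± 0.17 (adjusted p = 3.46e-06) for shCHD4#1 and shCHD4#2, and at 24 h -0.85 ± 0.14 (adjusted p = 0.00175) and -1.33 ± 0.14 (adjusted p = 6.64e-05). Both hairpins are set against the same shScramble libraries. In shScramble and the CHD4 groups libraries 1 and 2 carried more reads on processed pseudogenes (0.313% to 0.388%) than all others (0.223% to 0.283%), so values were also taken within each kind. Among the others alone FGFR1 changed by -1.28 and -2.02 at 48 h and -0.91 and -1.29 at 24 h for shCHD4#1 and shCHD4#2; among libraries 1 and 2 alone by -1.37 and -1.53, and -0.70 and -1.22, where only -0.70 (adjusted p = 0.0595) was not called.

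In all, shCHD4#1 raised 2 members (FGFR4 and PDGFRA; 12.9% of all genes rose) and lowered 2 (FGFR1 and ERBB3; 15.5% fell) at 48 h, and at 24 h it raised the same 2 (5.21% rose) and lowered FGFR1 (6.14% fell). With shCHD4#2, 1 member rose at 48 h (MET; 17.5% rose) and 3 fell (FGFR1, FGFR2 and KIT; 20.3% fell), while at 24 h 2 fell (FGFR1 and FGFR2; 7.01% fell) and limma called 0 higher (4.05% rose), against 0 by edgeR's quasi-likelihood test, 1 by DESeq2 and 1 at an unadjusted p under 0.05, which was PDGFRB. FGFR1 was the only member called in both hairpins, and it was called at both times. Of the members not called, PDGFRB changed by 0.46 ± 0.24 (adjusted p = 0.163) and -0.33 ± 0.24 (adjusted p = 0.298) and FGFR3 by -0.33 ± 0.20 (adjusted p = 0.225) and -0.44 ± 0.20 (adjusted p = 0.0908) with shCHD4#1 and shCHD4#2 at 48 h. Without single libraries some of these were called: FGFR3 with shCHD4#2 at -0.65 (adjusted p = 0.0216) without its library 1 and -0.44 (adjusted p = 0.0455) without library 2 of shCHD4#1, and PDGFRB with shCHD4#1 at 0.61 (adjusted p = 0.0467) without library 2 of shScramble. PDGFRB with shCHD4#2 at 24 h was called at 0.75 (adjusted p = 0.0168) without library 2 of shScramble.

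FGFR2 fell with shCHD4#2. It had 203, 47.9 and 90.5 normalised counts with shCHD4#2 at 48 h and 589.7, 389 and 517 with shCHD4#1, against 499, 567, 619.6, 610.4 and 520.1 with shScramble. At 24 h the values were 317, 216 and 278 with shCHD4#2 and 542, 631 and 604 with shCHD4#1, against 569.8, 661, 494, 548 and 490.0 with shScramble. The shCHD4#2 libraries were below all others at both times, while shCHD4#1 overlapped shScramble. The change with shCHD4#2 was -2.54 ± 0.31 (adjusted p = 2.95e-05) at 48 h and -1.04 ± 0.14 (adjusted p = 3.91e-04) at 24 h, and with shCHD4#1 -0.19 ± 0.31 (adjusted p = 0.691) at 48 h. Taken within each kind of library, the shCHD4#2 change was -2.67 and -2.42 at 48 h and -0.88 and -1.23 at 24 h. Its effect at 48 h differed from that at 24 h by -1.50 ± 0.36 (adjusted p = 0.044), 1 member where 0.989% of all genes differed, and by -1.44 (adjusted p = 0.155) with the replicate block. That call was lost when any of 22 single libraries was left out, with -1.004 (adjusted p = 0.212) without library 2 of shCHD4#2 at 48 h. With shCHD4#1 limma called 0 members between the times, where 0.00476% of all genes differed, as did edgeR and DESeq2, and 2 (FGFR1 and ERBB3) had an unadjusted p under 0.05.

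FGFR4 and PDGFRA rose with shCHD4#1. FGFR4 had 1232, 1882 and 1568 normalised counts with shCHD4#1 and 973, 672 and 764 with shCHD4#2 at 48 h, against 989, 1185, 1092, 1056 and 923 with shScramble. The shCHD4#1 libraries lay above all the controls and those of shCHD4#2 reached lower, overlapping them. The change was 0.56 ± 0.16 (adjusted p = 0.017) with shCHD4#1, and 0.50 (adjusted p = 0.0683) with the replicate block, and -0.40 ± 0.16 (adjusted p = 0.0615) with shCHD4#2. Without library 2 of shCHD4#1 it was 0.41 (adjusted p = 0.118) and without library 3 it was 0.54 (adjusted p = 0.0552). The shCHD4#2 change was called without its library 1, at -0.54 (adjusted p = 0.0201), and without library 1 of shCHD4#1, at -0.40 (adjusted p = 0.044). At 24 h the shCHD4#1 change was 0.57 ± 0.14 (adjusted p = 0.0156), and 0.50 (adjusted p = 0.108) without library 2. It was also lost in libraries 1 and 2 alone at 48 h, at 0.49 (adjusted p = 0.296), and in the libraries lower in pseudogene reads alone at 24 h, at 0.52 (adjusted p = 0.205). PDGFRA, at a few counts, had 18.3, 17.5 and 16.8 with shCHD4#1 and 10.5, 9.03 and 8.42 with shCHD4#2, against 5.36, 8.25, 8.14, 5.60 and 8.72 with shScramble at 48 h. Again every shCHD4#1 library lay above the controls, at a log2 change of 1.20 ± 0.25 (adjusted p = 0.00265). At 24 h PDGFRA had 20.8, 18.1 and 13.9 with shCHD4#1, against 11.1, 7.29, 7.09, 4.22 and 6.02 with shScramble, a change of 1.23 ± 0.31 (adjusted p = 0.0199), of 0.98 (adjusted p = 0.0558) with the replicate block, and of 1.11 (adjusted p = 0.0793) and 1.20 (adjusted p = 0.0933) without library 1 or library 2 of shCHD4#1. These levels lay far below the 170.3 to 285 of shFLI1 at 48 h.

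At 48 h KIT fell and MET rose with shCHD4#2, and ERBB3 fell with shCHD4#1. KIT had 4346, 3717 and 3999 normalised counts with shCHD4#2 at 48 h and 4614, 4444 and 4603 with shCHD4#1, against 5548, 4939.7, 5608, 4974 and 5633 with shScramble. All 6 libraries lay below the 5 controls, and the change was called for shCHD4#2, at -0.41 ± 0.12 (adjusted p = 0.0129), and at -0.35 (adjusted p = 0.0719) without its library 2, and not for shCHD4#1, at -0.23 ± 0.12 (adjusted p = 0.165). Without library 3 of shFLI1, which shares the estimate of the spread, the shCHD4#1 change was called, at -0.23 (adjusted p = 0.0397). MET had 1958, 1209 and 1062 with shCHD4#2 at 48 h, against 1062, 554, 960.5, 629 and 818 with shScramble, a change of 0.80 ± 0.29 (adjusted p = 0.041). It was lost without library 1 or 2 of shCHD4#2, at 0.54 (adjusted p = 0.189) and 0.88 (adjusted p = 0.0748), and without library 2, 4 or 5 of shScramble, at 0.68, 0.72 and 0.82 (adjusted p = 0.0829, 0.0816 and 0.0579). It was lost too with no filter on low values (adjusted p = 0.0522) and with the kind of library as a term (adjusted p = 0.0525). ERBB3 had 37.4, 29.2 and 39.5 with shCHD4#1 at 48 h, against 44.6, 94.8, 74.3, 59.7 and 54.5 with shScramble, a change of -0.84 ± 0.24 (adjusted p = 0.0179) that was -0.71 (adjusted p = 0.0947) without library 2 of shCHD4#1. Within either kind of library alone none of these 3 changes was called, nor was that of PDGFRA with shCHD4#1.

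**Figure D3:**
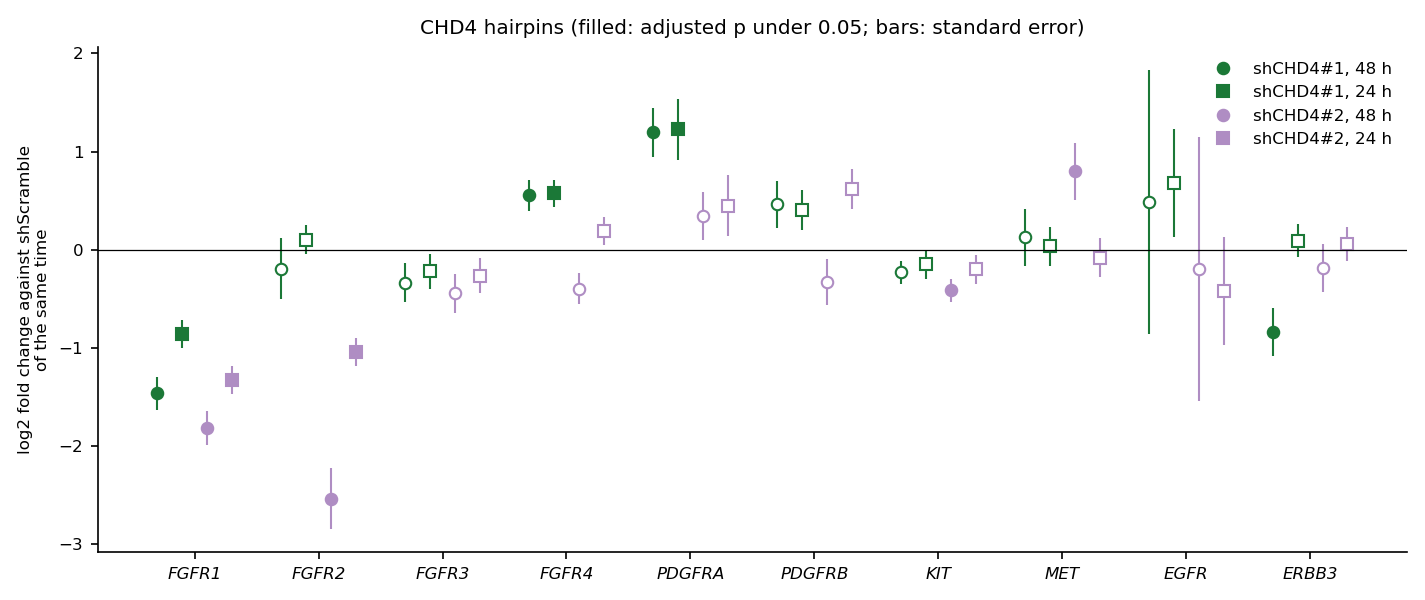
Log2 fold change of each member with shCHD4#1 and with shCHD4#2 against shScramble at 48 and at 24 h, on the log2(value + 1) scale with standard errors; filled points were called. FGFR1 is called below 0 in all 4 comparisons and FGFR2 in both comparisons of shCHD4#2.

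The 2 CHD4 hairpins differed in 4 members at 48 h, each of them higher with shCHD4#1. Of all genes 37.9% differed, in either direction, so the count of 4 among 10 members lies near that share. With the replicate block 5 members were called, 4 higher and 1 lower with shCHD4#1, the lower one being MET, at -0.67 ± 0.23 (adjusted p = 0.0391). The differences, shCHD4#1 minus shCHD4#2, were 2.34 ± 0.35 (adjusted p = 1.86e-04) for FGFR2, 0.95 ± 0.18 (adjusted p = 9.05e-04) for FGFR4, 0.85 ± 0.28 (adjusted p = 0.0261) for PDGFRA and 0.79 ± 0.26 (adjusted p = 0.0294) for PDGFRB. At 24 h FGFR2 alone differed, by 1.14 ± 0.16 (adjusted p = 6.59e-04), where 9.62% of all genes did, and with the replicate block FGFR1 was called too, 2 members in all. The PDGFRA difference was lost without any of 5 single libraries (0.79 to 0.88, adjusted p = 0.0519 to 0.0779) and that of PDGFRB without library 2 or 3 of shCHD4#1 or library 2 of shCHD4#2 (0.55 to 0.73, adjusted p = 0.0907 to 0.15). Both were lost within either kind of library alone, and that of PDGFRA also with quantile normalisation, at 0.74 (adjusted p = 0.0801), and with DESeq2, at 0.91 (adjusted p = 0.0705). Without single libraries 3 members were added at 48 h: MET at -0.99 (adjusted p = 0.0299) without library 1 of shCHD4#1, FGFR1 at 0.56 (adjusted p = 0.0353) without library 2 of shCHD4#1, and ERBB3 at -0.65 (adjusted p = 0.0423) without library 2 of shScramble. FGFR1 differed between the hairpins by 0.35 ± 0.19 (adjusted p = 0.162) at 48 h and 0.47 ± 0.16 (adjusted p = 0.0775) at 24 h.

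Set directly against the mean of both CHD4 hairpins, shFLI1 had 6 members higher at 48 h (32.9% of all genes were higher) and 2 lower (32.8% lower), and at 24 h 4 higher (28% higher) and 1 lower (24.8% lower). FGFR1 differed by 2.60 ± 0.17 (adjusted p = 7.31e-09) at 48 h and 1.88 ± 0.14 (adjusted p = 8.54e-08) at 24 h. FGFR4 differed by -2.90 ± 0.15 (adjusted p = 1.36e-09) and -1.60 ± 0.13 (adjusted p = 3.05e-07) at the same times. PDGFRB differed by 3.08 ± 0.23 (adjusted p = 3.40e-08) and 1.51 ± 0.20 (adjusted p = 1.75e-05). At 48 h the higher members also took in PDGFRA (3.99), FGFR2 (2.12), MET (1.44) and EGFR (3.09), the last through library 3, and KIT was lower, at -0.33 ± 0.11 (adjusted p = 0.0181), and at -0.14 (adjusted p = 0.161) without library 3. Among the libraries lower in pseudogene reads alone KIT was at -0.34 (adjusted p = 0.103). With the replicate block KIT was also lower at 24 h, at -0.32 ± 0.10 (adjusted p = 0.013). Without library 3 of shFLI1 at 48 h, EGFR was at 0.59 (adjusted p = 0.485) at that time. FGFR3 was higher at 24 h, by 0.54 ± 0.17 (adjusted p = 0.017), and by 0.46 (adjusted p = 0.0823) and 0.51 (adjusted p = 0.0644) without library 1 or library 2 of shFLI1. This call was lost too with the kind of library as a term, at 0.32 (adjusted p = 0.0944), and among the libraries lower in pseudogene reads alone, at 0.32 (adjusted p = 0.0932), the kind to which every shFLI1 library belongs.

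Over the 8 groups FGFR1 was highest with shFLI1 and lowest with the CHD4 hairpins: mean normalised counts were 4442 ± 440.2 and 3975 ± 66.8 with shFLI1 at 48 and 24 h, 2295 ± 393 and 2310.0 ± 306 with shScramble at 48 and 24 h, and 649 ± 93.2 to 1276 ± 168 in the 4 CHD4 groups (SD). The step below shFLI1 and the step below shScramble separated groups that did not overlap. FGFR3 and KIT ran in shallow orders, in which every neighbour overlapped. Group means were 518 ± 29.8 to 862 ± 150 for FGFR3 and 3451 ± 738 to 5684 ± 528 for KIT (SD). Across the 28 libraries the log2 values of FGFR1 and FGFR2 had a Pearson r of 0.770, PDGFRA and PDGFRB of 0.765, and FGFR4 and PDGFRB of -0.814. These values share the groups and their shFLI1 libraries and are given as description.

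The genes whose log2 values over the same 28 libraries were most like a member's, by Pearson r, were SCPEP1 (0.976) and CAPN2 (0.971) for FGFR1, LRRC17 (0.968) and TMEM35A (0.96) for FGFR2. For FGFR4, TYSND1 had an r of 0.974. For PDGFRB they were SELENBP1 (0.969) and STON1-GTF2A1L (0.966), and for PDGFRA OXR1 (0.918) and DIP2B (0.917). MET was most like RPS6KA2 (0.949) and ADRA2A (0.902), and KIT like SUMO3 (0.91) and ALX4 (0.894). FGFR3 and ERBB3 had no close match, with CRIP2 (0.773) and FIGNL1 (0.721) for FGFR3 and KCNJ11 (0.839) and RNF125 (0.796) for ERBB3. The matches of EGFR, AC111000.4 (0.891) and ACSM2A (0.89), rest, like EGFR itself, mainly on 1 library. The r of the 7 members other than FGFR3, ERBB3 and EGFR were 0.894 or more.

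Other receptor tyrosine kinases, 34 of the 47 in the table tested, gave 18 higher and 8 lower with shFLI1 at 48 h (16 and 8 without library 3), and 10 higher and 8 lower at 24 h. Of all tested genes 32.2% rose and 31.7% fell at 48 h, and 24.2% rose and 22.5% fell at 24 h, so the 24 h counts lie near those shares. The same shares are the background of the shFLI1 counts in the 4 lists that follow. For the CHD4 hairpins at 48 h the background, here and in those lists, is another. With shCHD4#1 12.9% of all genes rose and 15.5% fell, and with shCHD4#2 17.5% rose and 20.3% fell. The median log2 change of the other receptor tyrosine kinases with shFLI1 at 48 h was 0.53, against 0.01 for all genes. FLT1, a VEGF receptor, rose by 6.13 ± 0.36 (adjusted p = 3.82e-09), ROR2, a WNT5A receptor, by 5.05 ± 0.40 (adjusted p = 6.59e-08), and the TAM receptors AXL and MERTK by 3.89 ± 0.25 (adjusted p = 8.89e-09) and 3.39 ± 0.26 (adjusted p = 4.65e-08). At 24 h these 4 changed by 2.36, 2.31, 1.20 and 3.81. EPHB3, an ephrin receptor, fell at both times, at -1.35 at 48 h and -1.73 at 24 h on the log2 scale. ERBB2, the partner of ERBB3 and named for that, changed by 0.93 ± 0.13 (adjusted p = 2.03e-05) at 48 h. With shCHD4#1 6 rose and 7 fell and with shCHD4#2 4 rose and 14 fell at 48 h; AATK rose by 2.52 and 1.53, AXL rose by 1.81 and 0.98, and EPHB4 fell, at -0.45 and -0.55.

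Of the ligands of the members, 18 of 28 in the table were tested. With shFLI1 8 rose and 3 fell at 48 h (8 and 4 without library 3), with a median of 0.92, and 5 rose and 4 fell at 24 h. FGF7, a ligand of FGFR2, rose by 5.65 ± 0.52 (adjusted p = 3.34e-07), and FGF19, the ligand of FGFR4, by 2.01 ± 0.29 (adjusted p = 2.43e-05) while its receptor fell. FGF7 passed the filter only through the shFLI1 libraries, with means of 181 against 2.54 with shScramble at 48 h. The entry of FGF7 into the test and its call thus rest on the same values. HBEGF, a ligand of EGFR, rose by 1.81 ± 0.25 (adjusted p = 1.63e-05) at 48 h and changed by -0.71 ± 0.26 (adjusted p = 0.0344) at 24 h. PDGFC, a ligand of PDGFRA, rose by 1.13 ± 0.18 (adjusted p = 5.65e-05), KITLG, the ligand of KIT and named for that, by 2.48 ± 0.55 (adjusted p = 0.00117), and NRG1, a ligand of ERBB3, changed by -1.49 ± 0.31 (adjusted p = 6.74e-04). With shCHD4#1 5 rose and 0 fell and with shCHD4#2 4 rose and 4 fell at 48 h. FGF6 rose with both, by 4.26 ± 0.57 (adjusted p = 1.05e-04) and 3.39 ± 0.57 (adjusted p = 3.60e-04), as did HBEGF, by 0.82 and 2.04. FGF6 passed the filter only through the CHD4 groups. Its means at 48 h were 40.2 with shCHD4#1 and 21.5 with shCHD4#2, against 1.68 with shScramble. The entry of FGF6 into the test and its calls thus rest on the same values.

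Co-receptors and decoys, which hold growth factors at the cell surface or trap them, gave 7 higher and 1 lower of 13 tested with shFLI1 at 48 h (6 and 2 without library 3), and 3 higher and 2 lower at 24 h. The syndecans SDC2 and SDC1 rose by 4.23 ± 0.35 (adjusted p = 1.13e-07) and 3.34 ± 0.28 (adjusted p = 1.16e-07), the glypican GPC4 by 4.22 ± 0.37 (adjusted p = 1.89e-07) and the neuropilin NRP1 by 1.704 ± 0.17 (adjusted p = 6.74e-07). SDC4, another syndecan, was at -0.10 ± 0.15 (adjusted p = 0.586) at 48 h and fell at 24 h, at -0.77 ± 0.11 (adjusted p = 6.87e-05). With shCHD4#1 2 rose and 0 fell, and with shCHD4#2 1 rose and 5 fell at 48 h. GPC4 rose with both hairpins, by 1.53 and 1.76.

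Adaptors and signal transducers, which carry the signal from phosphorylated receptors, gave 12 higher and 6 lower of 32 tested with shFLI1 at 48 h (13 and 5 without library 3), with a median of 0.16, and 9 higher and 2 lower at 24 h. The docking protein GAB2 rose by 4.44 ± 0.33 (adjusted p = 3.08e-08), SHC2 by 3.31 ± 0.29 (adjusted p = 1.69e-07), SHC4 by 1.74 ± 0.24 (adjusted p = 2.02e-05) and FRS3, the FGF receptor substrate, by 1.42 ± 0.14 (adjusted p = 6.70e-07). PIK3R1, a regulatory subunit of PI3 kinase, fell, at -0.30 at 48 h and -0.71 at 24 h, and its 48 h change was -0.20 ± 0.12 (adjusted p = 0.185) without library 3. With shCHD4#1 4 rose and 2 fell and with shCHD4#2 7 rose and 8 fell at 48 h. SHC2 rose with both, by 2.18 and 3.32, and PIK3R3 and SOS1, the RAS exchange factor, fell with both, at -0.87 and -1.85 for PIK3R3 and -0.35 and -0.27 for SOS1.

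Negative regulators and endocytic sorting genes, which damp or remove active receptors, gave 11 higher and 5 lower of 23 tested with shFLI1 at 48 h (10 and 5 without library 3), with a median of 0.40, and 4 higher and 5 lower at 24 h. SPRY1, an inhibitor of RAS-MAPK signalling that growth factors induce, rose by 7.11 ± 0.62 (adjusted p = 1.74e-07) and at 24 h by 2.72 ± 0.30 (adjusted p = 5.55e-06). SPRED2 rose by 1.76 ± 0.17 (adjusted p = 4.83e-07), LRIG3 by 1.53 ± 0.11 (adjusted p = 2.93e-08) and the receptor phosphatase PTPRB by 3.61 ± 0.71 (adjusted p = 4.58e-04). SPRY1 and PTPRB passed the filter only through the shFLI1 libraries. Their means at 48 h were 413 and 39.8 with shFLI1, against 3.06 and 3.55 with shScramble. The entry of both into the test and their calls thus rest on the same values. SH2B3, an adaptor that inhibits KIT and cytokine receptor signalling, fell, at -2.96 ± 0.15 (adjusted p = 1.33e-09) and -2.17 ± 0.16 (adjusted p = 8.57e-08) at 48 and 24 h. With shCHD4#1 2 rose and 6 fell and with shCHD4#2 5 rose and 6 fell at 48 h. ERRFI1, an inhibitor of EGFR, rose with both, by 0.58 and 1.32, and the phosphatase PTPN1 fell with both, at -1.04 and -0.25. At 24 h both hairpins raised SPRY1, by 1.62 and 1.55, and lowered SPRED2 (-0.76 and -0.64) and SOCS3 (-0.63 and -0.65). SPRY1 was at few counts there, with means of 9.08 and 8.53 against 2.35 with shScramble. At 48 h the SPRY1 means were 5.30 with shCHD4#1 and 13.9 with shCHD4#2, against 3.06. SPRED2 was then at 226 and 315 against 257, and SOCS3 at 118 and 290 against 269, so neither mean was lower with shCHD4#2.

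At 24 h fewer genes were called with the CHD4 hairpins, over all genes (5.21% higher and 6.14% lower with shCHD4#1, 4.05% and 7.01% with shCHD4#2) as in these lists. Of the other receptor tyrosine kinases 3 rose and 1 fell with shCHD4#1 and 0 rose and 2 fell with shCHD4#2. Of the ligands 4 rose and 0 fell with shCHD4#1 and 1 rose and 1 fell with shCHD4#2. The co-receptors gave 1 higher and 0 lower with shCHD4#1 and 1 higher and 4 lower with shCHD4#2, the adaptors 2 and 2 and then 1 and 3, and the negative regulators 2 and 4 and then 1 and 4. GPC4, FGF6 and SHC2 had already risen with both at 24 h, by 2.02 and 1.30, 2.41 and 1.88, and 1.46 and 1.74. FGF6 was at few counts there, with means of 11.3 and 5.98 against 1.13 with shScramble. Its entry into the test rests on the CHD4 groups here too.

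**Figure D4:**
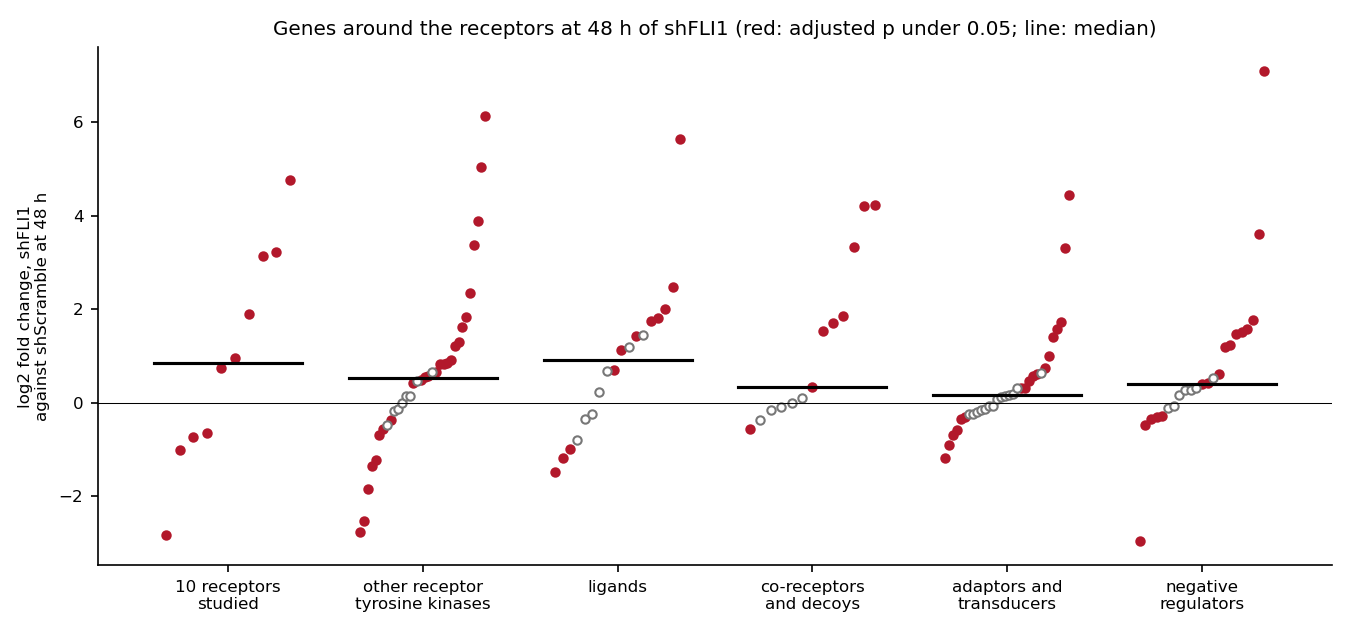
Log2 fold change of each tested gene with shFLI1 against shScramble at 48 h for the members and 5 lists of the pathway, one point per gene, red where called, with the median as a line. The median is 0.86 for the members, 0.53 for the other receptor tyrosine kinases and 0.92 for the ligands.

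The authors' deposited table for shFLI1 at 48 h gives log2 fold changes of 4.52 (deposited adjusted p = 9.19e-17) for PDGFRA, 2.81 (deposited adjusted p = 2.83e-09) for PDGFRB, -2.98 (deposited adjusted p = 5.89e-25) for FGFR4 and -1.03 (deposited adjusted p = 0.00186) for KIT. For EGFR the authors' deposited table gives 8.40 (deposited adjusted p = 1.40e-05), which rests on library 3 in the counts. For the other members the authors' deposited table gives MET 1.26 (deposited adjusted p = 0.143), FGFR1 0.77 (deposited adjusted p = 0.69), FGFR2 0.56 (deposited adjusted p = 1), FGFR3 -0.92 (deposited adjusted p = 0.47) and ERBB3 -1.09 (deposited adjusted p = 0.277). For the CHD4 hairpins at 48 h the authors' deposited table gives FGFR1 -1.32 (deposited adjusted p = 1.07e-05) with shCHD4#1 and -1.68 (deposited adjusted p = 1.30e-12) with shCHD4#2, and FGFR2 -2.29 (deposited adjusted p = 1.92e-09) with shCHD4#2. At 24 h the authors' deposited table gives FGFR1 -1.18 (deposited adjusted p = 0.00311) with shCHD4#2. The deposited adjusted p is 1 in the authors' deposited table for the other changes called here, which are FGFR4, PDGFRA and ERBB3 with shCHD4#1 and KIT and MET with shCHD4#2 at 48 h, and FGFR1, FGFR4 and PDGFRA with shCHD4#1 and FGFR2 with shCHD4#2 at 24 h. In the authors' deposited table p-values are larger than a test against no change would give from the deposited change and its standard error, as for FGFR1 with shFLI1 at 48 h (0.77, standard error 0.184, deposited p = 0.258). The test behind the authors' deposited table is not given in the sources used here, so its p-values and those of the fit here do not answer the same question.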

How the data were processed

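RNA-seq libraries of SK-N-MC cells (28 libraries in 8 groups, stranded total RNA, paired-end reads) were compared by hairpin and time. Per the submitters' processing notes, the tools were DESeq2 1.34.0, featureCounts 1.6.0, HISAT2 2.1.0, FastQC 0.11.7 and SAMtools 1.7, with the GRCh38 build. The values deposited by the authors are normalised counts per gene, a signal that equals gene counts divided by a size factor per library; the 24 h and 48 h tables held the same values, to a relative difference of 4.98e-07. The authors also deposited log2 fold changes with p-values and adjusted p-values; their shFLI1 table at 24 h was not used here.

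Steps of the low values gave whole reads for 100% of those low values (tolerance 0.02). Larger values were rounded to whole reads without this check, which gave 46102707 to 64775441 reads per library. Intervals and floors (3 reads) cover counting error only. Genes with a mean of at least 10 normalised counts over the 28 libraries (21025 of 35488) were tested as log2(value + 1) with limma 3.58.1 in R 4.3.3 (limma-trend, all groups of a time in 1 fit, both times for differences between times), with Benjamini-Hochberg adjustment over all tested genes. Fold changes on this scale understate the change of low genes. The fit was tested on simulated data. Alternatives were edgeR 4.0.16 (quasi-likelihood test) and DESeq2 1.42.0 on the recovered reads, a pseudocount of 0.5, no filter, median centring, quantile normalisation, the replicate number as a block, the kind of library as a term, each kind alone, and each library left out in turn. Exon lengths and gene positions came from GENCODE 29. Tables were read with Python 3.11.15, pandas 2.3.3 and numpy 2.4.6.

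In the 38 replicate pairs the lowest chi-square per gene was 8.72, so no library was counted as a duplicate. Replicate numbers were taken to pair the CHD4 hairpins with shScramble, since same-numbered libraries deviated together from their group means (correlations of 0.119 to 0.548 in all 12 pairs). Differently numbered libraries were not compared in this way. Same-numbered libraries are also of the same kind by processed pseudogene reads, so pairing by number and the kind of library cannot be told apart here.

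The members and the lists were chosen with earlier results of these data known. Besides the 10 members, CHD4 and FLI1, the text names from each list the 4 genes with the smallest adjusted p with shFLI1 at 48 h, the 3 smallest at 24 h and up to 3 genes called in 1 direction with both CHD4 hairpins at a time, and for each member the 2 genes most correlated with it. ERBB2 and KITLG were named besides as partners of members. Some genes that this rule or the marker lists hold are not reported here.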

Additional observations from a re-analysis of the deposited data

Results flagged for a closer look

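Of 20 groups of values examined for a library far from the rest of its group, 1 was marked, about the share that chance gives (1 in 20): FGFR3 in library 1 of shScramble at 48 h, at 1128 normalised counts, against 767 to 812 in the other 4 libraries. The 20 groups were those of shScramble, for each member at each time. The knockdown groups, with 3 libraries each, were not examined, so EGFR in library 3 of shFLI1 at 48 h could not be marked.

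The effect of shFLI1 at 48 h differed from its effect at 24 h, in the test of the difference itself, for 5 members: PDGFRA (4.43 on the log2 scale), MET (1.62), PDGFRB (1.13), FGFR4 (-1.61) and FGFR3 (-1.02). Of all genes 7.22% were higher and 9.44% lower in this test. The PDGFRB call was lost in 2 of 37 alternative analyses. The effect of shCHD4#2 differed between the times for FGFR2 (-1.50), where 0.989% of all genes differed. That call was lost in 26 of 38 alternative analyses.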

How the results depend on the processing

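Under all 23 alternatives FGFR1, FGFR3, FGFR4, PDGFRA, PDGFRB, KIT, MET and ERBB3 stayed called with shFLI1 at 48 h, and FGFR1, FGFR4 and PDGFRB at 24 h; FGFR1 with shCHD4#1 at 48 h and FGFR1 and FGFR2 with shCHD4#2 at both times stayed called under all 24. Median centring moved the median of all genes with shFLI1 at 48 h to -0.11. Counts of called members moved by over 1.5 times as follows, and the causes were not tested. The share of all genes called in the same settings is not set beside the counts in this paragraph. They describe how the calls depend on the setting and show nothing particular to the members. For shCHD4#1 against shScramble at 48 h (4 members) the count was 2 in the libraries lower in pseudogene reads alone, 1 in libraries 1 and 2 alone, and 2 to 5 without single libraries. At 24 h (3 members) it was 1 in either kind alone and 1 to 3 without single libraries. For shCHD4#2 at 48 h (4 members) it was 2 in libraries 1 and 2 alone and 2 to 5 without single libraries. For shCHD4#1 against shCHD4#2 it was 0 in libraries 1 and 2 alone at 48 h (4 members) and 2 to 5 without single libraries; at 24 h (1 member) it was 2 under quantile normalisation, the replicate block, the kind of library as a term and DESeq2. For the shCHD4#2 effect between times (1 member) it was 0 with no filter, with the block, in libraries 1 and 2 alone and with edgeR, and 0 to 2 without single libraries. Without single libraries, the counts were 8 to 9 for shFLI1 at 48 h and 4 to 5 at 24 h, 4 to 6 for its effect between times, and 6 to 8 and 4 to 6 against the CHD4 hairpins at 48 and 24 h. They were 2 to 3 for shCHD4#2 at 24 h, 1 for shCHD4#1 against shCHD4#2 at 24 h, and 0 for the shCHD4#1 effect between times. The replicate block gave 8 members with shFLI1 at 48 h and 5 at 24 h, where same-numbered libraries did not deviate together (correlations of -0.15 to 0.0449), and changed no other call of the CHD4 hairpins against shScramble beyond those given beside the results.

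Signs turned only among values that were not called. In the libraries lower in pseudogene reads alone, EGFR was -0.53 and -0.38 with shCHD4#1 at 48 and 24 h, ERBB3 0.066 with shCHD4#2 at 48 h, FGFR3 0.13 with shCHD4#1 at 48 h, and MET -0.18 and -0.21 with shCHD4#1 at 48 and 24 h. In libraries 1 and 2 alone, EGFR was 0.0040 with shCHD4#2 at 48 h, FGFR2 -0.070 with shCHD4#1 at 24 h, and MET 0.30 with shCHD4#2 at 24 h. Quantile normalisation gave ERBB3 -0.050 with shCHD4#1 and -0.047 with shCHD4#2 at 24 h, and the replicate block gave MET 0.031 with shCHD4#2 at 24 h. Without single libraries EGFR ranged from -0.50 to 0.079 with shCHD4#2 at 48 h, and MET from -0.088 to 0.14 with shCHD4#1 at 24 h, -0.19 to 0.30 with shCHD4#1 at 48 h and -0.20 to 0.021 with shCHD4#2 at 24 h.

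Depth limits PDGFRA and EGFR outside shFLI1 at 48 h, with 25 to 59 and 0 to 5 reads over a group.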
